A study of Homo sapiens with 5 samples.

Results

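The regions described here are the 212 stretches of chromosome 11 with BG4 peaks called in at least 2 of 4 replicates of LNCaP cells. Chromosomes 1 to 22, X and Y held 3554 such regions. BG4, an engineered antibody fragment, recognises G-quadruplexes (G4s), and LNCaP is a long-established line of prostate cancer cells that responds to androgen. The series holds 5 samples, namely 4 BG4 pull-downs (replicates 1 to 4) and 1 input, all from formaldehyde-fixed, sonicated LNCaP chromatin with no other treatment named in the labels. The authors called peaks on hg19 separately for every pull-down, which gives 4 lists. Peaks of the 4 lists that overlapped by at least 1 bp were merged, and merged regions with peaks of at least 2 lists are called consensus regions. The labels do not say that the replicates were separate cultures, and p-values then measure only the spread between these libraries, which may be technical.

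A G-quadruplex forms where runs of guanine lie close together on a strand, so that the guanines of several runs can stack into planar layers held by a metal ion. Such runs are common at the promoters of active genes, where the DNA is free of nucleosomes, and BG4 signal in human cells is known to gather at open, guanine-rich promoters. Chromosome 11 is known for its contrasts. Its long arm holds band 11q13, one of the gene-rich bands of the genome, and both arms hold large families of olfactory receptor genes, which act in the nose and are mostly silent elsewhere.

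The sequence under the regions was not analysed here, and no region was assigned to a gene. Promoters of chromosome 11 genes from RefSeq (GRCh38.p14) were compared by gene list, and whether their sequence bears on BG4 density was not tested. A G4 motif was taken as 4 runs of at least 3 G, or of C for the other strand, with loops of 1 to 7 bases, searched on both strands in 300 bases around each gene start. It was found in 24.1% of 27305 promoters of the genome and in 23.2% of the 1490 of chromosome 11. The 41 genes listed as lying in or beside the dense part of band 11q13, placed there by textbook knowledge, had 30 promoters in the table. Of these 30, 14 held the motif (46.7%, 95% Wilson interval 30.2% to 63.9%), and the median GC content of the 30 was 69.5%. The promoters of C11orf68 and DRAP1, both with the motif, overlap on opposite strands. Those of EIF1AD and BANF1, both without it, overlap likewise. The 30 are thus not all independent, which the interval does not allow for. Olfactory receptor genes of the whole chromosome, not only those of the stretches described below, had 135 promoters in the table. None held the motif, which allows a share of up to 2.77% (95% Wilson interval), and their median GC content was 37%. To show this contrast, 3 promoters of the dense neighbourhood and 1 of an olfactory receptor gene are printed, chosen after their sequences had been seen. They are the 250 bases before the start, 5′ to 3′ on the strand of the gene, with motif matches in capitals. MALAT1 is a long nuclear noncoding RNA gene, RNASEH2C encodes a subunit of ribonuclease H2, DRAP1 encodes a subunit of a repressor of transcription, and OR51E1 encodes an olfactory receptor also known from prostate tissue.
MALAT1: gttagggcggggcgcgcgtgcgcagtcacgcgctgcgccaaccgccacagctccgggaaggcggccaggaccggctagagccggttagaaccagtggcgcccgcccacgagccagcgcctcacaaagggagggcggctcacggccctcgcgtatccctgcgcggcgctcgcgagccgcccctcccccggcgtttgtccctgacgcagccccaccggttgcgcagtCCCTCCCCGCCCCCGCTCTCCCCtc
RNASEH2C: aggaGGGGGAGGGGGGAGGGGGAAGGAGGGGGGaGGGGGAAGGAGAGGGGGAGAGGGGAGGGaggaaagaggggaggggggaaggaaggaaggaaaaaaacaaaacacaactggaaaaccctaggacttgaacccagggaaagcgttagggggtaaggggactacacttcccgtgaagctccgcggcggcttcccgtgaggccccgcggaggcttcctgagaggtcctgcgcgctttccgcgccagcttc
DRAP1: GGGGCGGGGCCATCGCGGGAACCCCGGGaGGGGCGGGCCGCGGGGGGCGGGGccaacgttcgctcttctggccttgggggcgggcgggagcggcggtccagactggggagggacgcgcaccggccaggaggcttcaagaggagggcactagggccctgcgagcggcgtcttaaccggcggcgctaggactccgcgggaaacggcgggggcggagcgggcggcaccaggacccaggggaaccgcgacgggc
OR51E1: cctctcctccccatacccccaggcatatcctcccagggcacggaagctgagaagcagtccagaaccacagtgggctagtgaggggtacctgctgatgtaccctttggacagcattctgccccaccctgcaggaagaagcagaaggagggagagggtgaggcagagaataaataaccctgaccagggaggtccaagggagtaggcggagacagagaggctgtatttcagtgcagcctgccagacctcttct
The match of MALAT1 lies on the strand opposite the gene and ends 2 bases before its start. RNASEH2C and DRAP1 each hold 2 matches on the strand of the gene, at the far end of the printed stretch. OR51E1 holds none, although its GC content of 57.6% over these bases is above the median of its family. A match is a description of the letters and does not show that a structure forms there.

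The other gene lists of the chromosome were small. Of 22 promoters in the table for 35 listed cancer genes, 10 held the motif (45.5%, 95% Wilson interval 26.9% to 65.3%), among them GSTP1, a detoxifying enzyme often silenced in prostate cancer, HRAS, a growth-signalling GTPase, and KMT2A, a histone methyltransferase. CHEK1, a DNA damage kinase, and MEN1, a tumour suppressor of endocrine tissue, did not hold it. Among housekeeping genes, 1 of 10 promoters held it (10%, 95% Wilson interval 1.79% to 40.4%), that of the ribosomal protein gene RPLP2. That interval holds the 23.2% of all chromosome 11 promoters. The haemoglobin genes had 1 promoter in the table, that of HBD, without the motif. RefSeq names 376 olfactory receptor genes and pseudogenes on chromosome 11, 43.0% of all 875 in the genome, and as many as 31 protein-coding ones follow each other with no other coding gene between.

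Chromosome 11 took a nearly fixed share of every list. It held 386, 91, 213 and 133 peaks in replicates 1 to 4, a 5.89 ± 0.27% share of the list (SD, n = 4). The lists differed in length, from 1640 peaks in replicate 2 to 6476 in replicate 1 on chromosomes 1 to 22, X and Y. The number of the 212 regions that each list called followed the order of length, and the cause was not tested. Replicate 1 called 203 of them, replicate 3 called 178, replicate 4 called 126 and replicate 2 called 90. Most regions with 2 lists came from the longest pair, with 60 of 93 called in replicates 1 and 3 only, while no region was called in replicates 2 and 3 only. Without replicate 1 the remaining lists gave 125 consensus regions on the chromosome.

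Merging gave 437 regions on the chromosome, of which 225 were called in 1 list, 93 in 2, 65 in 3 and 54 in all 4. The share called in at least 2 lists was 48.5% (95% Wilson interval 43.9% to 53.2%), near the 47.3% of all merged regions of the genome. The share of consensus regions called in all 4 lists was 25.5% (20.1% to 31.7%), near the genome's 24.9%. Both intervals held the value of the whole genome. Replicate 1 alone accounted for 183 of the 225 regions of a single list. Regions just inside the rule, with 2 lists, had a median within-list fold percentile of 44.2 and 14 reads at the summit, and those just outside, with 1 list, had 27.1 and 14 reads. Regions with all 4 lists had a percentile of 73.5 and 20.75 reads. Here fold is the summit's enrichment above its surroundings as the authors' peak caller wrote it, and it is compared only within a list. Reads at the summit were recovered from the deposited values.

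The regions were gathered into a few places. Of 135 windows of 1 Mb, 63 held no consensus region and 45 held no peak of any list. A further 29 held 1 region, 31 held 2 to 4 and 12 held 5 or more. At least 1 region lay in 53.3% of windows, against 45.2% of windows of chromosomes 1 to 22 and X. At least 10 regions lay in 5 of 135 windows (3.70%), against 1.41% in the genome, and all 5 stood between 62 and 68 Mb. The 10 fullest windows together held 91 of the 212 regions (42.9%).

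**Figure D1:**
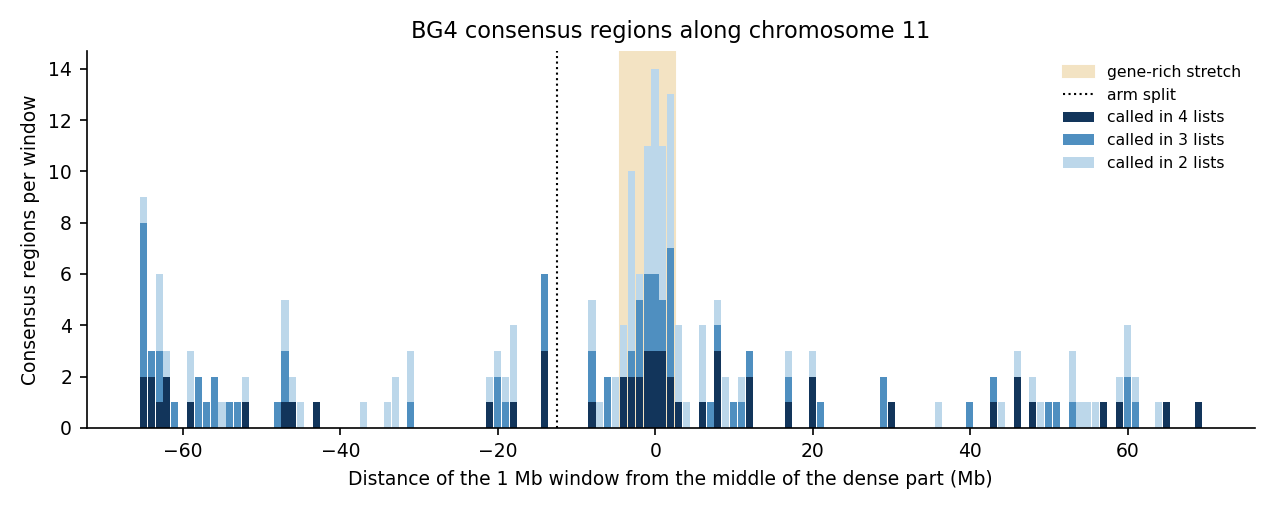
Consensus regions in each 1 Mb window of chromosome 11 (vertical axis, number), plotted by distance from the middle of the dense part in Mb, with negative values toward the short-arm end. Colours give the number of lists that called a region, the shaded band is the gene-rich stretch and the dotted line is the arm split. The fullest window, with 14 regions, stands at the centre, and a second group of up to 9 per window stands at the short-arm end.

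**Figure D2:**
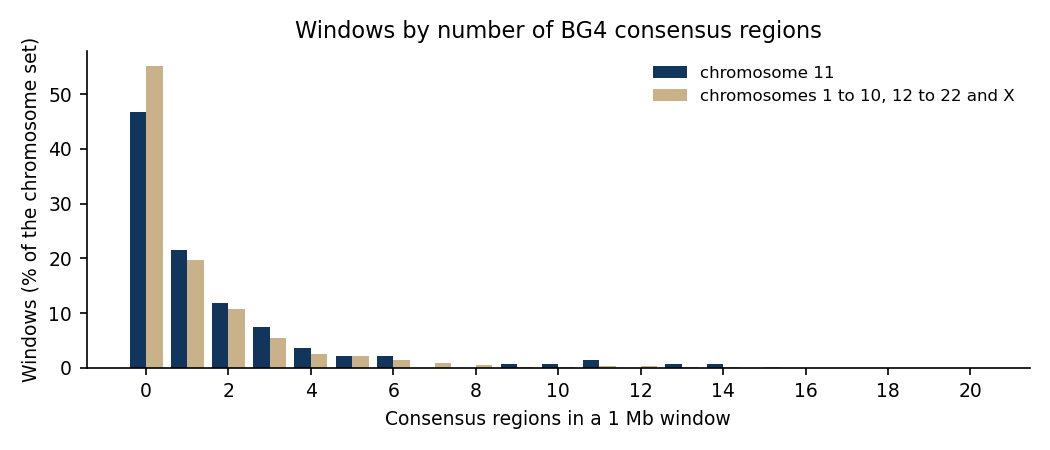
Share of 1 Mb windows (vertical axis, percent) by the number of consensus regions they hold (horizontal axis), for chromosome 11 and for the other autosomes and X. Empty windows made up 46.7% on chromosome 11 and 55.2% elsewhere, and 3.70% against 1.31% held at least 10 regions.

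The long arm was denser than the short arm as a whole, but not outside the gene-rich stretch. Split at 53 Mb, the short arm held 69 regions over 52.8 Mb (1.31 per Mb) and the long arm held 143 over 81.9 Mb (1.75 per Mb), a ratio of 1.34. In replicates 1 to 4 the ratio was 1.36, 1.03, 1.37 and 1.396, or 1.29 ± 0.17 (SD, n = 4). It was above 1 in 4 of 4 lists, though barely in replicate 2 (exact two-sided sign-flip permutation test, p = 0.125, the smallest value 4 lists can give). Outside the stretch from 61 to 68 Mb the long arm held 74 regions on 74.9 Mb (0.988 per Mb), or 0.755 times the short arm's density. In replicates 1 to 4 this ratio was 0.824, 0.644, 0.787 and 0.855 (0.778 ± 0.093, SD, n = 4). It leaves the densest section out of the long arm only, since the short arm kept its own dense first 4 Mb (5.58 per Mb). From 4 to 53 Mb the short arm held 0.980 per Mb, near the 0.988 of the long arm outside the stretch. The 0.980 counts 48 regions, of which 6 form the cluster described next, and no value without them was computed. Lengths run between the first and last peak of the chromosome and include the gap of the centromere.

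A cluster beside the split bears on that ratio. Within 11.3 kb, from 51579386 to 51590653, lay 6 consensus regions, 3 of them called in all 4 lists (24.9% over the genome). Their folds were in the lowest 2.07% of each list. They ran from 1.60 to 1.88 in replicate 1, from 1.62 to 2.36 in replicate 2, from 1.42 to 2.02 in replicate 3 and from 1.86 to 2.21 in replicate 4. Their summits held 228 to 310 reads over a background that was 176 to 221 times the genome level (median over lists). On the rest of the chromosome the median background was 1.71 times the genome level and no region exceeded 5.04 times. Replicates 2, 3 and 4 called all 6 of these regions, and replicate 1, the longest list, called 3. Without the peaks from 51 to 52 Mb the arm ratio was 1.46, and in replicates 1, 2, 3 and 4 it was 1.39, 1.24, 1.51 and 1.63. These peaks all lie on the short arm, so leaving them out had to raise all 4 values. The value of replicate 2 was still the lowest.

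**Figure D3:**
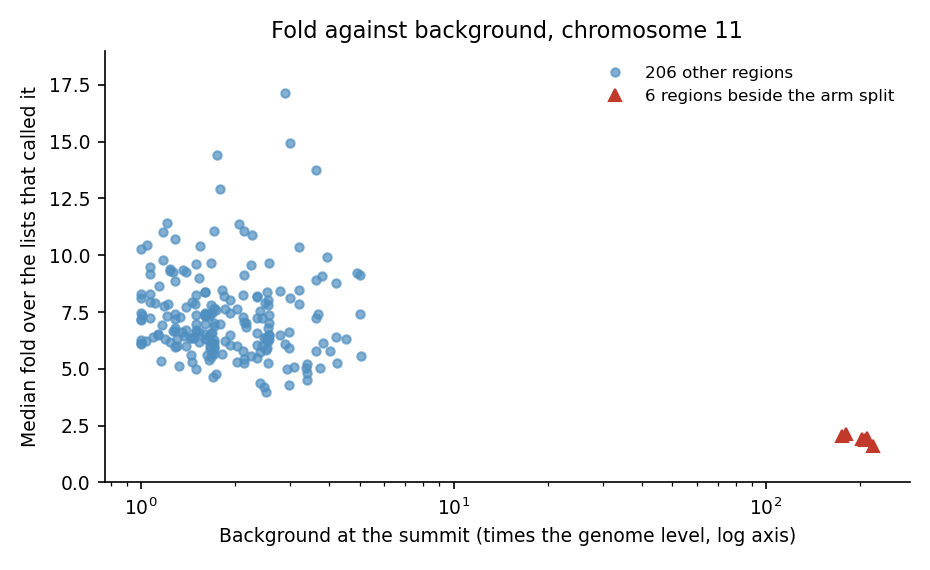
Median fold over the lists that called a region (vertical axis) against the background at its summit in multiples of the genome level (horizontal axis, log scale), 1 point per consensus region of chromosome 11. The 6 regions beside the arm split sit apart, at a background of 176 to 221 times and a fold below that of the other 206 regions.

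No list held a peak from 51590654 to 57078791, an interval of 5.49 Mb that spans the split and includes the centromere. The longest interval without a consensus region was on the short arm, from 34938400 to 44586633 (9.65 Mb), where the 4 lists together held 1 peak. On the long arm, the 7.53 Mb from 86749119 to 94277254 held 5 peaks of any list and the 6.26 Mb from 95523163 to 101785573 held 1. These 3 intervals lay outside the centromere, and each held few or no peaks even in replicate 1, the longest list.

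The gene-rich stretch from 61 to 68 Mb held 69 regions, 32.5% of those of the chromosome on 7 Mb. Its density was 9.86 per Mb against 1.12 per Mb on the rest of the chromosome, a ratio of 8.80. In replicates 1 to 4 the stretch took 117, 24, 69 and 40 peaks, which was 30.3%, 26.4%, 32.4% and 30.1% of the chromosome's peaks in the list (29.8 ± 2.5%, SD, n = 4). The density ratio was 7.93, 6.53, 8.74 and 7.84 in the same order (7.76 ± 0.91, SD, n = 4). The stretch was picked with its density in these lists known, so the ratio is a description with no test. All 4 lists placed a similar share of their peaks here, whatever their length. Among 2884 blocks of 7 Mb taken in steps of 1 Mb over chromosomes 1 to 22 and X, 5 (0.173%) held at least 69 regions, 2 on chromosome 11 and 3 on chromosome 19, where the fullest held 75. The median block held 5. No such block of chromosome 11 held more than the stretch itself, and the blocks overlap, so this rank too is only a description.

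Within the stretch, the 7 windows from 61 to 68 Mb held 4, 10, 6, 11, 14, 11 and 13 regions. The window from 65 to 66 Mb held the most consensus regions of the chromosome, with 27, 4, 12 and 10 peaks in replicates 1 to 4. By peaks it was the fullest in replicates 1 and 4. In replicate 3 the window from 67 to 68 Mb held more, with 13 peaks, and in replicate 2 the first window of the chromosome led with 8 peaks and the window from 67 to 68 Mb had 7. The 8 Mb before the stretch held 10 regions (1.25 per Mb), and the 10 Mb after it, which include the neighbourhood of the cyclin D1 gene CCND1 in textbook maps, held 23 (2.30 per Mb). Neighbouring regions inside the stretch lay a median of 58.4 kb apart, against 379 kb over the other intervals of the chromosome. Close pairs were few even here. Of 68 intervals in the stretch, 5 were under 5 kb, the shortest being 378 bp between the regions at chr11:64577263-64577565 and chr11:64577944-64578289.

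No difference in fold beyond the spread over lists was found for the stretch. The median fold of peaks in consensus regions was 7.26, 6.68, 6.39 and 7.22 inside the stretch and 7.56, 6.37, 6.62 and 6.70 outside it, in replicates 1 to 4, a ratio of 1.01 ± 0.06 (SD, n = 4) that was above 1 in 2 of 4 lists (exact two-sided sign-flip permutation test, p = 0.75). The difference was smaller than its own spread over the lists. Of the regions in the stretch, 17 of 69 were called in all 4 lists (24.6%, 95% Wilson interval 16.0% to 36.0%), against the genome's 24.9%. Their median background was 1.92 times the genome level, against 1.68 outside the stretch, and their median summit held 17 reads against 16. The part of background in the density was not tested.

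**Figure D4:**
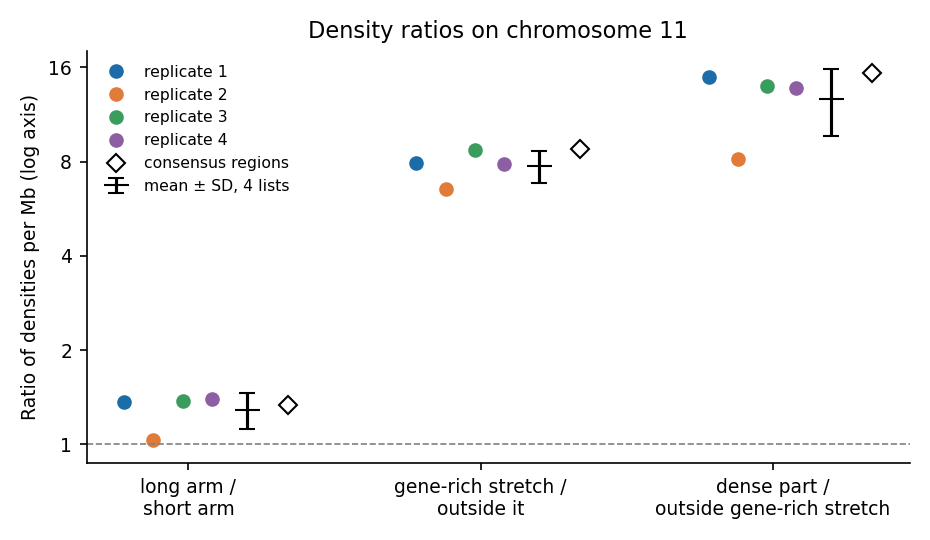
Ratios of peak density per Mb on chromosome 11 (vertical axis, log scale) for 3 comparisons. Coloured points are the single lists, the bar is their mean ± SD over 4 lists and the diamond is the ratio from consensus regions. The gene-rich stretch lies between 6.53 and 8.74 in the lists, and the dense part spreads from 8.17 to 14.9.

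The dense part, from 65.2 to 65.9 Mb, held 12 consensus regions on 0.7 Mb, or 17.1 per Mb. The ratio to the chromosome outside the gene-rich stretch was 15.3. Over replicates 1 to 4 it was 14.9, 8.17, 13.9 and 13.7 (12.7 ± 3.1, SD, n = 4), again a description with no test, since the part was picked for its density. These rest on 22, 3, 11 and 7 peaks, so the value of replicate 2 comes from 3 peaks. With every list shortened to its 1640 peaks of highest −log10 q, the ratio from consensus regions was 8.69. The dense part was not the only such place. Among 30167 blocks of 0.7 Mb in steps of 0.1 Mb, 69 (0.229%) held at least 12 regions, 7 of them on chromosome 11 and the others on 7 more chromosomes. The fullest block of chromosome 11 started at 64.8 Mb and held 13, so the peak of density is broad rather than fixed to these bounds.

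Textbook maps of this part of band 11q13 hold the nuclear noncoding RNA genes NEAT1 and MALAT1, then genes such as RELA, which encodes a subunit of the transcription factor NF-κB, KAT5, a histone acetyltransferase, CFL1, an actin-binding protein, FOSL1, a subunit of the AP-1 transcription factor, and SF3B2, a splicing factor. The 12 regions are given here by position. Replicate 1 called all 12, replicate 3 called 10, replicate 4 called 7 and replicate 2 called 3. Of all 212 regions of the chromosome, replicates 1, 3, 4 and 2 called 95.8%, 84.0%, 59.4% and 42.5%.

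Called in all 4 lists were 3 of the 12 (25%), near the 24.9% of all consensus regions of the genome. The region at chr11:65264808-65265322 was the strongest, with folds of 15.2, 7.18, 9.63 and 9.12 in replicates 1 to 4 and 30, 12, 21 and 16 reads at the summit. Its background was 1.24 times the genome level, the lowest of the 12, and in replicate 1 its fold was the highest of the 12. The region at chr11:65686473-65687081 had folds of 8.15, 6.31, 12.3 and 7.66. At chr11:65479793-65480277 the folds were 7.94, 5.75, 6.80 and 5.80 over a background of 4.51 times the genome level. Although its folds were the lowest of these 3, it had the most reads at the summit by the median of the lists, 28.5.

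Called in 3 lists, without replicate 2, were another 2. The region at chr11:65819405-65819867 had folds of 10.02, 6.50 and 8.39 in replicates 1, 3 and 4. The region at chr11:65382792-65383378 had folds of 6.997, 6.13 and 7.16 in the same lists. It lay 875 bp from the region at chr11:65381652-65381916, the only close pair of the dense part.

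The remaining 7 were called in 2 lists each, 5 in replicates 1 and 3 and 2 in replicates 1 and 4. In replicates 1 and 3, the region at chr11:65430161-65430662 had folds of 8.26 and 5.69, that at chr11:65381652-65381916 had 5.01 and 6.57, and that at chr11:65255053-65255403 had 5.09 and 5.33. The region at chr11:65667830-65668224 had folds of 4.58 and 5.05. The weakest of the dense part, at chr11:65244930-65245331, had folds of 4.84 and 3.76 with 18 and 10 reads. In replicates 1 and 4, the region at chr11:65314037-65314372 had folds of 6.03 and 5.82 and that at chr11:65560638-65561041 had 6.37 and 5.84. Over the dense part, summits held 10 to 36 reads, which limits the precision of each single fold.

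**Figure D5:**
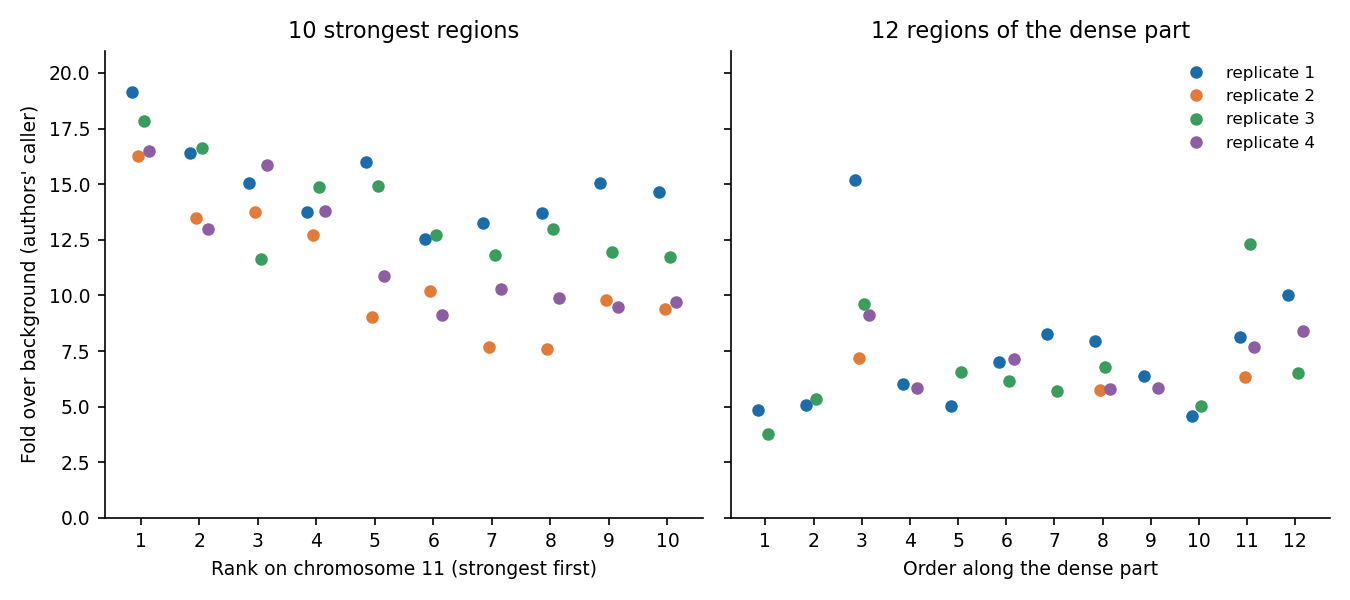
Fold over background as the authors' caller gave it (vertical axis) in each list, for the 10 strongest regions of chromosome 11 (left) and the 12 regions of the dense part in order of position (right). A missing colour means that the list did not call the region. In replicate 1 the third region of the dense part is the highest of the 12, at 15.2. Replicate 2, which called 42.5% of the chromosome's 212 regions, is missing for 9 of the 12.

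The strongest regions of the chromosome were ranked by number of lists and then by fold percentile within each list. Of the first 10, 1 lay in the gene-rich stretch, which held 32.5% of the chromosome's regions and 17 of the 54 in all 4 lists. Another 4 lay in the first 4 Mb of the short arm, which held 9.91% of the regions and 7 of the 54. With 10 regions these counts say little about either place. The first in rank, at chr11:64008314-64009172, had folds of 19.2, 16.3, 17.8 and 16.5 in replicates 1 to 4, with 68, 46, 54 and 46 reads at the summit. It was the highest fold of chromosome 11 in every list. The next, at chr11:71497654-71498668, had folds of 16.4, 13.5, 16.6 and 12.96. Both were among the wider regions, 859 and 1015 bp, over a background 2.88 and 2.99 times the genome level.

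The first 4 Mb, next to the end of the short arm, held 21 regions (5.58 per Mb). Of these, 7 were called in all 4 lists, where the share over the genome's consensus regions was 24.9%. The region nearest the end, at chr11:407125-407613, had folds of 15.1, 13.8, 11.6 and 15.9. At chr11:507169-507647 the folds were 16.0, 9.02, 14.9 and 10.9, with 40, 19, 34 and 24 reads at the summit. The region at chr11:3443638-3444760, the widest of the chromosome at 1123 bp, had folds of 13.7, 12.7, 14.9 and 13.8. At chr11:3818774-3819437 they were 12.5, 10.2, 12.7 and 9.12. Of the 21 regions, 9 stood in the first 1 Mb, where replicates 1 to 4 had 23, 8, 11 and 3 peaks, so replicate 4 was the lowest there although replicate 2 had the shortest list.

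The other 4 of the first 10 on the list were spread over both arms. On the short arm, chr11:6255785-6256463 had folds of 13.7, 7.57, 12.97 and 9.86, and chr11:13689778-13690358 had 13.3, 7.69, 11.8 and 10.3. On the long arm, chr11:77705633-77706114 had folds of 15.04, 9.78, 11.97 and 9.48, and chr11:82867577-82868224 had 14.7, 9.39, 11.7 and 9.72. Over the 54 regions called in all 4 lists, the median fold was 10.2, 7.11, 8.02 and 7.66 in replicates 1 to 4, each on the scale of its list. The rank order of these 54 was shared in part, where Spearman's rho was lowest between replicates 2 and 3 (0.48) and highest between replicates 1 and 3 (0.72). Both are over regions, which are not independent, and lists of the same cells share much of their background.

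By the same ranking, which puts the number of lists first, each remaining window of the gene-rich stretch has a leading region. That at the window from 66 Mb, chr11:66886247-66886810, had folds of 12.8, 10.4, 10.4 and 4.24, over a background of 2.99, 2.99, 3.41 and 4.81 times the genome level. That at the window from 67 Mb, chr11:67572735-67573548, had folds of 11.2, 13.5, 7.72 and 8.71. In the windows from 61, 62 and 63 Mb the leading regions were chr11:61595303-61595860, chr11:62341266-62341763 and chr11:63705914-63706522. Their folds ran from 6.48 to 10.8, from 6.38 to 10.6 and from 5.33 to 9.72.

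The olfactory receptor stretches held few peaks. Of their 4 windows of 1 Mb, 3 held no consensus region, against 46.7% of windows of the chromosome and 55.2% of those elsewhere, so with 4 windows the count says little about these stretches. From 4 to 6 Mb there were 2 peaks in replicate 1, 1 each in replicates 2 and 3 and none in replicate 4. They gave 1 consensus region, at chr11:4629291-4629685, with folds of 8.69, 5.14 and 6.62 in replicates 1, 2 and 3 and 19, 9 and 12 reads at the summit. Between 5 and 6 Mb no list held a peak. From 55 to 57 Mb no list held a peak either, and this stretch lies inside the 5.49 Mb interval without a peak that includes the centromere. The next regions stood just outside, at chr11:57078792-57079257, with folds of 7.65, 7.53 and 8.11 in replicates 1, 3 and 4, and at chr11:3818774-3819437 on the other side. The first 4 Mb and the following 2 Mb thus held 21 regions and 1 region.

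Beyond 78 Mb the long arm held 41 regions on 56.9 Mb (0.720 per Mb), 12 of them called in all 4 lists (24.9% over the genome). They were spread unevenly, since the intervals of 7.53 and 6.26 Mb without a consensus region lie in this section. The last region, at chr11:134201432-134201802, had folds of 9.85, 8.35, 12.8 and 8.46 over a background of 1.07 times the genome level. The density of the whole section was below that of the short arm between 4 and 53 Mb. That part of the short arm held 48 regions (0.980 per Mb), among them the 6 beside the split. The lowest folds of the chromosome were those of the 6 regions beside the split. The same ranking by lists and then fold puts 3 regions of 2 lists last. They were the region of the dense part at chr11:65244930-65245331, chr11:2008566-2008961 with folds of 4.38 and 4.01 in replicates 1 and 4, and chr11:69458964-69459377 with folds of 4.07 and 3.86 in replicates 1 and 2.

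In the medians of width, background, reads and summit spread, the members lay close to the regions of the other chromosomes. The rule bears on width and summit spread, since it merges overlapping peaks. Their median width was 454 bp against 445 bp, their median background 1.71 times the genome level in both, and their median summit 16 reads in both. A background of at least 100 times the genome level was found at 6 of the 212 regions (2.83%), those beside the split, and at 27 of 3342 elsewhere (0.808%). The summits placed by different lists in a region lay within 100 bp of each other in 146 of 212 regions (68.9%) and in 68.9% of regions elsewhere, with medians of 67 and 68 bp. The median fold of peaks in consensus regions was 7.51, 6.60, 6.53 and 6.90 on chromosome 11 and 7.48, 6.80, 6.84 and 6.69 on the others, in replicates 1 to 4. The ratio was 0.990 ± 0.034 (SD, n = 4), above 1 in 2 of 4 lists (exact two-sided sign-flip permutation test, p = 0.75). The copy number of the chromosome in these cells was not taken into account.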

How the data were processed

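BG4 chromatin immunoprecipitation was sequenced from LNCaP cells. The submitters' processing notes name hg19, MACS2 2.1.1, Bowtie2 2.2.5, SAMtools 1.11 and bcl2fastq 1.8.4, with settings not given in the sources used here. For every BG4 replicate the authors deposited a narrowPeak list with the fold enrichment ratio at the summit, its −log10 p and −log10 q, a whole-number score that was not used, and the summit position. The lowest deposited −log10 q was 1.30 to 1.37 in the lists, so weaker sites are not listed. Deposited folds were compared only within a list.

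Peaks were assigned by summit and regions by midpoint. The reads at a summit were recovered as the whole number whose Poisson p, with the background given by the fold, matched the deposited −log10 p within 0.001, which worked for every peak. Background is given relative to the lowest of the list. Merging was tested on 300 simulated sites and the recovery on 500 summits, all recovered. Intervals are 95% Wilson intervals and cover counting error only. The log ratios of the arms and of fold were tested over the 4 lists by exact sign-flip permutation, which cannot pass 0.05. The planned tests of the gene-rich stretch and the dense part are not given, since both were picked for their density. Software was Python 3.11.15 with scipy 1.17.1, pandas 2.3.3, numpy 2.4.6 and matplotlib 3.10.9.

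The members, stretches and lists were chosen with earlier results of these data known. Named regions are the 10 strongest, all in the dense part and the olfactory receptor stretches, the strongest of each window from 61 to 68 Mb, those at the ends and beside 53 Mb, and the 3 weakest. The promoter share, gene share and motif share of the regions were planned but not run, since no hg19 sequence or annotation was used here. Promoters were matched by symbol, current or older, and RefSeq sequences are of GRCh38.p14. The gene lists were the dense neighbourhood, cancer, haemoglobin, housekeeping and olfactory receptor genes. Other sections of the chromosome, such as its first 4 Mb, were picked for description once the windows were known.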

Additional observations from a re-analysis of the deposited data

Results flagged for a closer look

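Dixon's test was run on 28 results that had a value in every replicate, and 1 result had a replicate apart from the rest. Chance gives about 1 in 20. The ratio of long-arm to short-arm density was 1.03 in replicate 2, against 1.36 in the nearest replicate. Its value rests on 35 short-arm and 56 long-arm peaks. Without the peaks from 51 to 52 Mb the ratio was 1.24 in replicate 2, still the lowest of 1.39, 1.24, 1.51 and 1.63.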

How the results depend on the processing

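The density ratios of the gene-rich stretch and the dense part kept their direction under every alternative run. Both were picked for their density in these same lists, so the kept direction gives no independent support. The arm ratio reversed in 1 alternative, to 0.755, when the gene-rich stretch was left out of count and length and the short arm was kept whole. That alternative and the one without the peaks from 51 to 52 Mb were added with the results known. The count of consensus regions was 212, and 112 with lists of equal length (1640 peaks of highest −log10 q), 119 for regions in 3 or more lists and 54 for those in 4. Leaving out each replicate in turn gave 125 to 204, and 125 without replicate 1. The ratio of the gene-rich stretch was 8.80, and 6.08 with equal lists, 7.30 in 3 or more lists and 6.82 to 9.12 with 1 replicate left out. The ratio of the dense part was 15.3, and 8.69 with equal lists, 10.7 in 3 or more lists and 10.2 to 16.1 with 1 replicate left out, the lowest without replicate 1. The arm ratio was 1.34, and 1.12 with equal lists, 1.098 in 3 or more lists and 1.18 to 1.35 with 1 replicate left out. Windows without a region numbered 63, and 101 for regions in all 4 lists, and 20 when windows were 2 Mb long. The olfactory receptor stretches held 1 region, and 0 in all 4 lists. The share called in at least 2 lists was 48.5%, and 59.3% with lists of equal length, 43.3% with an overlap of at least 50% of both peaks and 36.5% to 49.02% with 1 replicate left out. The ratio of median fold was 0.990, and 1.04 with −log10 q in place of fold. Fewer lists or peaks set the counts by construction, and the cause of the other shifts was not tested. The alternatives of the 3 planned results on promoters, genes and motifs, and the one that leaves assembly gaps out of lengths, could not be run without hg19 sequence. No paired analysis was possible because all pull-downs belong to a single group.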
